A study of Mus musculus with 7 samples.

Results

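The p53 stress-response target genes are a set of 31 genes through which the tumour suppressor p53 is known to act on nutrient sensing, cell death, the cell cycle, nucleotide supply and metabolism. They were chosen by name as known p53 targets, but with earlier results of these data known, so their shares beside all genes are not independent evidence. All 31 were found among the 23955 gene names of the count table. Poly(A) RNA came from 7 lines of mouse esophageal epithelial cells, all of mixed strain background and grown in plastic dishes in KSFM, a serum-free keratinocyte medium. There were 3 mutant lines with the genotype p53R172H, a missense allele, and 2 null lines with the genotype p53 -/- (numbered 1 and 3). All 5 of these carried the treatment label 4NQO, the esophageal carcinogen 4-nitroquinoline 1-oxide. The 2 wild-type (WT) lines carried no treatment label, so genotype and the 4NQO label cannot be told apart in any comparison with WT. The labels do not give when the agent was applied or whether lines came from separate animals, so p-values reflect line-to-line spread, which may be technical. In bulk RNA, fewer cells of a type and less RNA per cell cannot be told apart.

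p53 is a transcription factor that is stabilized by DNA damage and other stresses and binds a DNA element made of paired half-sites. Its targets include sestrins that restrain growth signalling, death receptors on the cell surface, kinases and adaptors that halt the cell cycle, and enzymes that supply nucleotides for repair. The p53R172H protein, the mouse counterpart of a frequent human tumour mutation, has an altered DNA-binding domain and activates most of these targets poorly. In squamous epithelium such as the lining of the esophagus, p53 is among the genes most often mutated in carcinoma.

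Library totals ranged from 12751118 to 47000225 counts, with the smallest in WT 2. Levels are given as CPM, counts scaled to library size, after TMM scaling, which corrects for library composition. Trp53, the gene for p53, was at 171.5, 249.5 and 254 CPM in mutant lines, 8.73 and 4.71 CPM in null lines and 212 and 193 CPM in WT lines. It was low in both null lines and near the WT level in all mutant lines. All 10 epithelial markers were found in the table, with a summed level of 7788 to 11156 CPM in mutant, 7082 and 11167 CPM in null and 29266 and 40862 CPM in WT lines, although Krt4, a keratin of differentiated layers, had no count in mutant 2. Called, here and throughout unless another tool is named, means an adjusted p under 0.05 in edgeR's quasi-likelihood test. By edgeR 3 of the 10 were called lower in mutant lines and 0 in null lines, beside 4.13% and 0.0654% of all genes. In null lines 3 were lower at an unadjusted p under 0.05, beside 9.01% of all genes. Most of the summed epithelial level was Krt5 and Krt14 in every line (13824 and 11357 CPM in WT 1). The log2 fold changes in mutant and null against WT were -0.0042 and -0.55 for Trp63, -2.07 and -0.18 for Epcam, and -1.01 and -0.11 for Cdh1. Of the immune markers, Ptprc and Cd3e, which define leukocytes and T cells, were at most 0.06 CPM in any line. Cd68, a lysosomal protein of macrophages, was at 48.0 to 91.8 CPM in mutant, 32.1 and 22.5 CPM in null and 74.1 and 78.9 CPM in WT lines. The 10 fibroblast markers summed to 859, 9.78 and 376 CPM in mutant 1, 2 and 3, to 8.31 and 478 CPM in null 1 and null 3, and to 5.75 and 8.60 CPM in WT lines. Among them Lum, Thy1 and Fap were at most 0.797 CPM in any line. The part of these markers in the results on the p53 targets was not tested.

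The p53 half-site, a motif of 10 bases, was looked for in the promoter windows of the members, from 250 bases before to 50 bases after each gene start, because members that share a regulator may share it. RefSeq windows (build GRCm38.p6) were found for 26 of the 31 members, and those of Zmat3, Trp53inp1, Tnfrsf10b, Rrm2b and Ptp4a3 were not. A half-site lay in 7 of these 26 genes and in 8 of their 40 windows, against 8.36% of all 32851 windows and 8.44% of the 10280 genes that were tested here and have a window. The same Aen stretch was counted in more than 1 window, at 10 and -121 bases from their gene starts. Members had 40 windows for 26 genes and all genes 32851 for 27025, and more windows per gene give more room for a match. The match is symmetric, so 1 search covers both strands. The stretches are shown because some of the genes that carry them were called in the count data and others were not. Capitals mark the half-site and 10 bases stand on either side.
Ei24, chr9:36797325-36797354, minus strand: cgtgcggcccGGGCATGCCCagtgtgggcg
Polk, chr13:96519399-96519428, minus strand: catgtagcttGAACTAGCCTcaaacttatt
Aen, chr7:78895927-78895956, plus strand: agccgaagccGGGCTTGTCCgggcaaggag
Ckap2, chr8:22186003-22186032, minus strand: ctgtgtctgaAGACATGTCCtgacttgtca
Sesn1, chr10:41887256-41887285, plus strand: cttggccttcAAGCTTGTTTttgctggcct
Gadd45a, chr6:67037428-67037457, minus strand: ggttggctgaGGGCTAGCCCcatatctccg
Wrap53, chr11:69580274-69580303, minus strand: taacaagtaaGGGCAAGTCCttccgtgggt
Ei24 and Polk, first in this list, were called lower in mutant than in WT lines by edgeR, which called the other 5 in no comparison. DESeq2 called Aen lower in null than in WT lines (log2 fold change -1.20, adjusted p = 0.00224). Of the 9 members called lower in mutant lines, 7 have a window, and Dcxr, Def6, Psrc1, Fas and Slc19a2 showed no match in it. A match is a description of letters and not a binding site, and a window without one says nothing of sites elsewhere.

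Divided by exon length (GENCODE M21), the highest WT levels among members were those of Sfn, the adaptor 14-3-3 sigma of epithelial cells, at 472 CPM per kb, Ddit4 at 272, Phlda3 at 151 and Plk2 at 134 CPM per kb (means of 2 lines). The lowest were Gdf15 at 0.408 and Steap3 at 0.860 CPM per kb. All 31 members passed the filter on low counts, the least counted being Gdf15 with 23 and 9 counts in WT 1 and WT 2.

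About as many members were low in every altered line as were not. Of the 31 members, 16 were below both WT lines in all 5 altered lines, where 16.4% of all genes tested were, and 2 (Steap3 and Triap1) were above both WT lines in all 5, where 17.4% of all genes were. The mean log2 ratio of the members to WT was -0.71, -0.76 and -0.64 in mutant 1, 2 and 3, -0.76 and -0.86 in null 1 and null 3, and 0.15 and -0.15 in WT 1 and WT 2. The 5 altered lines lay between -0.86 and -0.64, and 26 members were higher in WT 1 than in WT 2. The share of all genes higher in WT 1 was not counted, so the 26 cannot be read as particular to the members. Mitosis genes differed between the WT lines in the opposite sense, with a mean log2 ratio of -0.51 in WT 1 and 0.51 in WT 2, and their part in this difference was not tested.

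**Figure D1:**
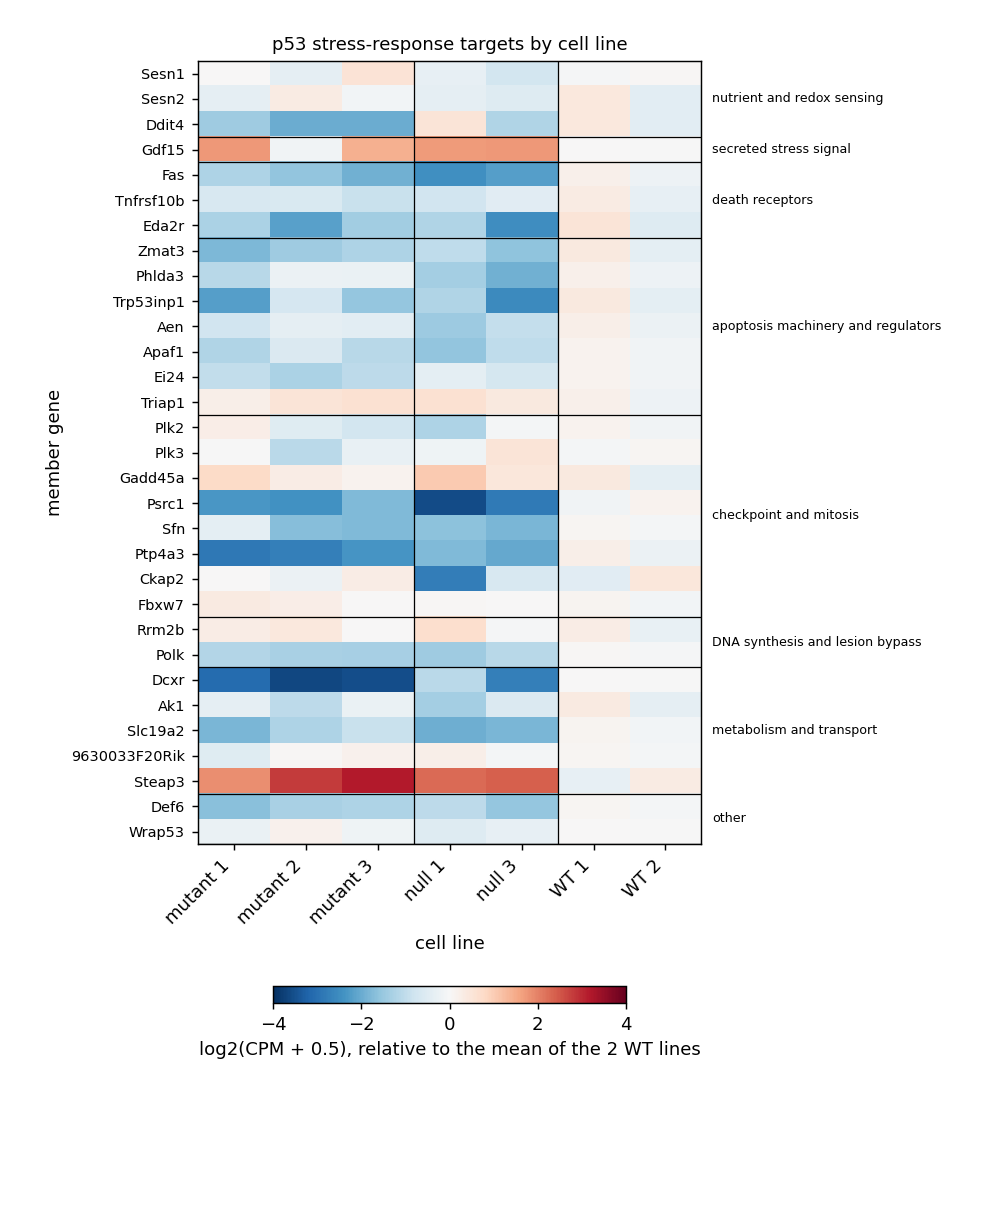
Each row is a member, ordered by role, and each column a line. Colour gives log2(CPM + 0.5) relative to the mean of the 2 WT lines, on a scale from -4 to 4; blue rows such as Fas, Zmat3, Psrc1, Ptp4a3, Polk and Dcxr are low in all 5 altered lines, and Steap3 is high in all 5.

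Mutant lines were set against WT lines to see how these targets stand with the missense allele and the 4NQO label. In mutant lines 9 of the 31 members fell and 1 rose at an edgeR adjusted p under 0.05, where 4.13% of the 13768 genes tested fell, 3.3% rose and 7.42% did either. Those that fell were Fas, Zmat3, Ei24, Psrc1, Ptp4a3, Polk, Dcxr, Slc19a2 and Def6, and Steap3 rose. The median log2 fold change was -0.58 over the members and 0.08 over all genes, and 24 members were below 0, as were 45.6% of all genes. The members' median was -0.90 without WT 2 and -0.39 without WT 1. The groups did not overlap for 17 members lower in mutant lines, against 25.7% of all genes, and for 2 higher, against 26.9%. These calls rested on few lines. Without mutant 3 no member was called by edgeR (14 had an unadjusted p under 0.05, beside 3187 of 13632 genes). Without mutant 2 only Ptp4a3 was called, beside 37 of 13667 genes in either direction and 16 lower. All calls were also lost without WT 1 or WT 2, and each of these fits has a lone WT line. Each of the 10 kept its sign in all these fits. Without mutant 1 the calls of Zmat3 and Psrc1 were lost (edgeR adjusted p = 0.0509 and 0.0536). In that fit 8 members were called lower and 1 higher, beside 794 and 626 of 13384 genes. DESeq2 called 15 members lower and 1 higher, beside 10.8% and 12.4% of all genes, adding Ddit4, Eda2r, Tnfrsf10b, Trp53inp1, Apaf1 and Sfn to those lower by edgeR. limma-voom called 9 lower and none higher, beside 3.94% and 1.45% of all genes (5.4% in either direction). The newer form of edgeR's quasi-likelihood fit called 9 lower and 1 higher, beside 5.77% and 3.93% (9.7% either), and so did the fit with no filter on low counts, beside 3.37% and 2.75%.

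Null lines were set against the same WT lines. No member was called by edgeR, where 0.0654% of all genes were called lower, 0.0726% higher and 0.138% either. At an unadjusted p under 0.05, 16 members were lower and 2 higher, against 9.01% and 11.2% of all genes (20.2% either). The median log2 fold change was -0.99 over the members and 0.06 over all genes, and 23 members were below 0, as were 46.4% of all genes. The members' median was -0.58 without WT 1 and -0.76 without null 1. The groups did not overlap for 20 members lower in null lines, against 27.1% of all genes, and for 4 higher, against 29%. DESeq2 called 14 members lower and 1 higher, beside 4.7% and 6.54% of all genes. By limma-voom no member was called, with 19 at an unadjusted p under 0.05, beside 2155 of 13768 genes. Ptp4a3 alone was called lower in the newer quasi-likelihood form (0.254% of all genes lower, 0.399% either) and with no filter (0.172% lower, 0.415% either). Without mutant 1, Sfn alone was called lower, beside 17 of 13384 genes lower and 28 in either direction. Both comparisons use the same 2 WT lines, so their likeness is not independent evidence.

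**Figure D2:**
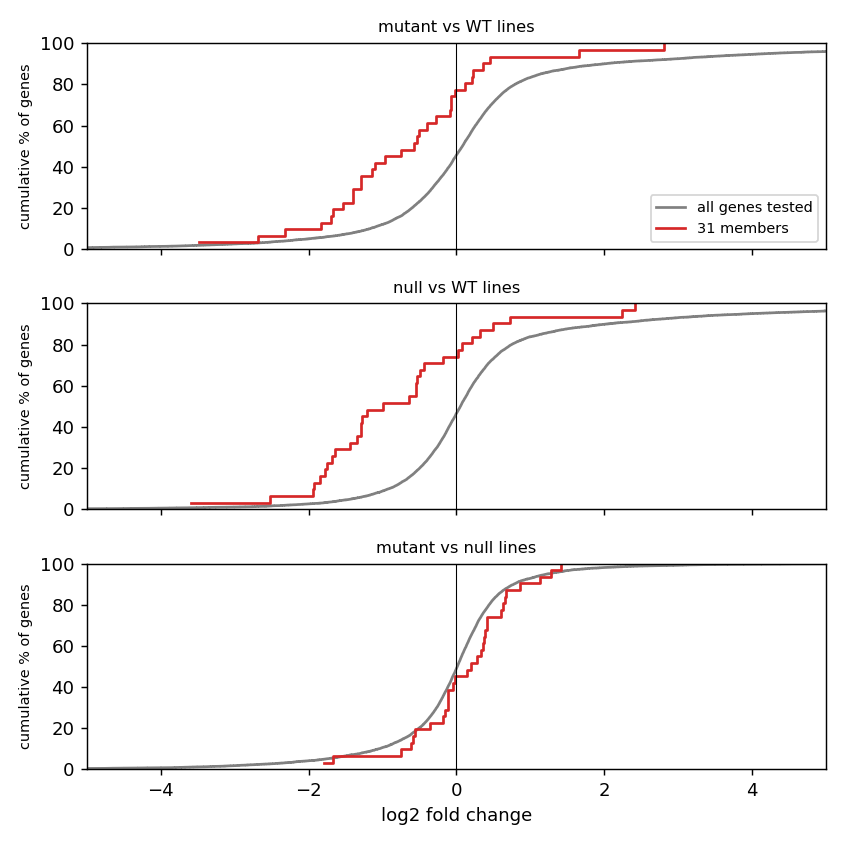
Cumulative share of genes (vertical axis, in percent) by log2 fold change (horizontal axis) for the 31 members in red and all 13768 genes tested in grey, in 3 comparisons. The red curves lie left of the grey ones in mutant against WT (medians -0.58 and 0.08) and null against WT (-0.99 and 0.06), while the medians in mutant against null are 0.20 and 0.02.

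Death receptors were low in all altered lines. Fas, the receptor for Fas ligand, was at 6.73, 5.20 and 3.99 CPM in mutant, 2.65 and 3.19 CPM in null and 19.3 and 14.4 CPM in WT lines. No altered line came near a WT line, and both null lines lay below all mutant lines. Fas fell in mutant lines (log2 fold change -1.66, SE 0.356, edgeR adjusted p = 0.0434), and in null lines its log2 fold change was -2.53 (SE 0.418, edgeR adjusted p = 0.082). Eda2r, the receptor for ectodysplasin A2, was at 16.2, 8.38 and 14.8 CPM in mutant, 17.0 and 6.68 CPM in null and 57.2 and 27.4 CPM in WT lines. No altered line reached either WT line, and Eda2r was not called by edgeR (log2 fold change -1.69 and -1.84 in mutant and null against WT, edgeR adjusted p = 0.0873 and 0.178). Tnfrsf10b, the mouse TRAIL receptor, was lower by less, at 30.6 to 37.1 CPM in mutant, 33.8 and 41.4 CPM in null and 71.4 and 45.9 CPM in WT lines, with log2 fold changes of -0.75 and -0.64 in mutant and null against WT. It was not called by edgeR in either, and DESeq2 called it in mutant lines (adjusted p = 0.0315).

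Of 7 genes of the apoptosis machinery and its regulators, edgeR called 2 lower in mutant lines and 0 in null lines, beside 4.13% and 0.0654% of all genes. In each comparison with WT 6 of the 7 were below 0, as were 45.6% and 46.4% of all genes. Zmat3, an RNA-binding zinc finger protein, was at 59.1, 76.1 and 87.7 CPM in mutant, 101 and 67.7 CPM in null and 271 and 158 CPM in WT lines. Zmat3 fell in mutant lines (log2 fold change -1.53, SE 0.2997, edgeR adjusted p = 0.0376). Ei24, an endoplasmic reticulum membrane protein with the half-site near its start, was at 94.95, 78.4 and 91.5 CPM in mutant, 144 and 116 CPM in null and 208 and 169.8 CPM in WT lines. The 3 groups of lines did not overlap for Ei24, which fell in mutant lines (-1.10, SE 0.173, edgeR adjusted p = 0.0259), while the null value of -0.54 was not called. Apaf1, the scaffold of the apoptosome, was at 30.1 to 46.9 CPM in mutant, 23.3 and 34.5 CPM in null and 78.3 and 63.6 CPM in WT lines, and was not called by edgeR (adjusted p = 0.0743 and 0.123).

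Phlda3, which restrains the kinase Akt, was at 108, 197 and 192 CPM in mutant, 90.5 and 60.9 CPM in null and 267 and 204 CPM in WT lines. Mutant 2 and 3 stood just under WT 2, and both null lines lay below every mutant line. Its log2 fold change was -0.51 in mutant and -1.64 in null against WT, neither called by edgeR (adjusted p = 0.307 and 0.111). Aen, a nuclease of apoptotic cells, was ordered in the same way, at 57.3 to 76.9 CPM in mutant, 36.1 and 50.7 CPM in null and 117 and 83.1 CPM in WT lines. Trp53inp1, a p53 cofactor also involved in autophagy, varied widely within groups, at 74.6, 217 and 116 CPM in mutant, 150.0 and 58.7 CPM in null and 456 and 259.6 CPM in WT lines. Triap1, an inhibitor of apoptosis, was the only one of the 7 above 0, at 42.7, 51.5 and 55.4 CPM in mutant, 55.4 and 46.9 CPM in null and 41.3 and 31.2 CPM in WT lines, with log2 fold changes of 0.46 and 0.50 that were not called.

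**Figure D3:**
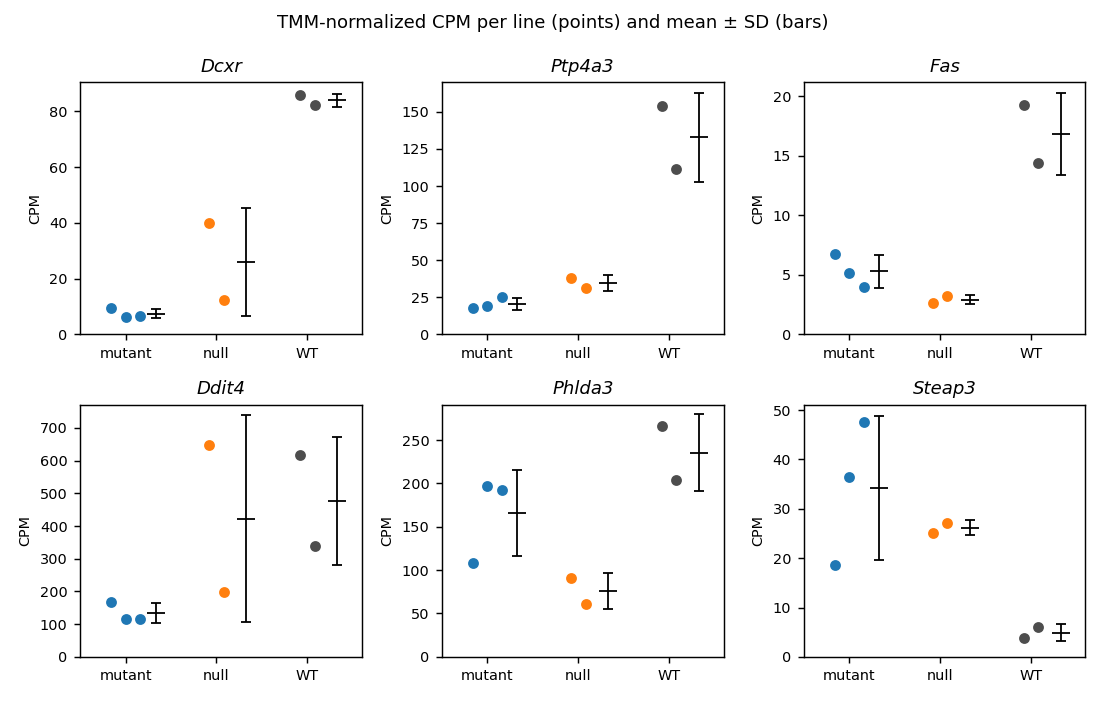
CPM of 6 members (vertical axes) in each line, grouped as mutant, null and WT, with points for lines and bars for mean ± SD (n = 3, 2 and 2). Dcxr, Ptp4a3 and Fas are low in all altered lines, Ddit4 is low in mutant lines but 646 CPM in null 1, Phlda3 is lower in null than in mutant lines, and Steap3 is high in all altered lines.

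The checkpoint and mitosis members split. Ptp4a3, the phosphatase PRL-3, was at 17.8, 19.2 and 25.1 CPM in mutant, 38.4 and 31.1 CPM in null and 154 and 112 CPM in WT lines. The 3 groups did not overlap, and Ptp4a3 fell in mutant lines (log2 fold change -2.68, SE 0.233, edgeR adjusted p = 0.0113), the smallest p of the 31 members in that comparison. In null lines it was at -1.93 (SE 0.263, edgeR adjusted p = 0.0673), again the smallest p among members. Sfn was at 578, 234 and 223 CPM in mutant, 241 and 213 CPM in null and 803 and 719 CPM in WT lines. Mutant 1 stood apart from the other altered lines, and edgeR did not call Sfn in mutant lines (-1.14, adjusted p = 0.127) but did without mutant 1 (-1.75, adjusted p = 0.0152). DESeq2 called Sfn lower in mutant and in null lines (adjusted p = 0.0311 and 0.00366). In null lines Sfn was at -1.74 (edgeR adjusted p = 0.144, and 0.0375 without mutant 1, whose removal changes the shared estimate of spread).

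Psrc1 and Ckap2 encode microtubule-associated proteins of the mitotic spindle. Psrc1 was at 2.62, 2.47 and 4.13 CPM in mutant, 0.821 and 1.71 CPM in null and 13.8 and 16.8 CPM in WT lines. Psrc1 fell in mutant lines (-2.32, SE 0.461, edgeR adjusted p = 0.0382), and its null value of -3.60 (SE 0.563, edgeR adjusted p = 0.0767) was the largest difference of any member from WT. Ckap2 was at 45.8, 38.4 and 55.3 CPM in mutant, 6.12 and 28.7 CPM in null and 32.9 and 61.2 CPM in WT lines. Null 1 stood far below every other line, and neither edgeR nor DESeq2 called Ckap2 in any comparison.

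Of 18 mitosis genes set beside them, all 18 were below 0 in null against WT and 12 in mutant against WT, as were 46.4% and 45.6% of all genes. In null and mutant against WT 8 and 0 had an unadjusted p under 0.05, beside 20.2% and 30.5% of all genes. By edgeR none of the 18 was called. Their mean log2 ratio to WT was 0.00131, -0.54 and -0.0083 in mutant 1, 2 and 3, -2.89 and -0.77 in null 1 and null 3, and -0.51 and 0.51 in WT lines. For Ckap2 this ratio was 0.03, -0.22 and 0.30 in mutant lines, -2.78 and -0.64 in null and -0.44 and 0.44 in WT lines, near the mitosis mean in each line. The ratio of Psrc1 was -2.33, -2.41 and -1.77 in mutant lines, where the mitosis mean was near 0 in mutant 1 and 3 and at -0.54 in mutant 2. In null 1 and null 3 Psrc1 was at -3.58 and -2.84, also below the mitosis mean.

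**Figure D4:**
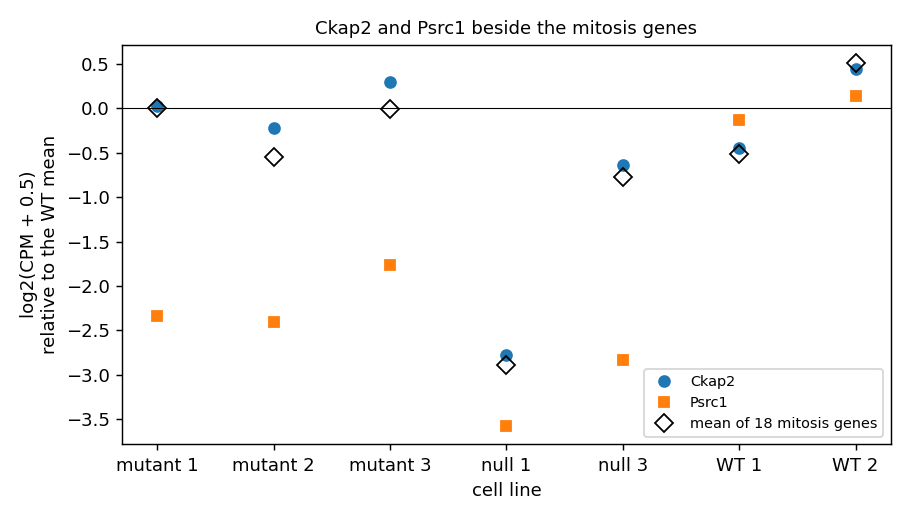
Log2(CPM + 0.5) relative to the WT mean (vertical axis) in each line for Ckap2 (circles), Psrc1 (squares) and the mean of 18 mitosis genes (diamonds). Ckap2 lies near the diamonds in all 7 lines, with both lowest in null 1 (-2.78 and -2.89), and Psrc1 lies below them in the mutant and null lines.

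The other checkpoint genes showed no call. Gadd45a, a damage-induced inhibitor of the G2 kinase complex, was at 138, 101 and 88.7 CPM in mutant, 168 and 111 CPM in null and 108 and 61.3 CPM in WT lines. All altered lines lay above WT 2, and WT 1 lay within the range of the mutant lines. The polo-like kinase Plk2 was at 717, 427 and 357 CPM in mutant, 254 and 571 CPM in null and 659 and 547 CPM in WT lines, and its relative Plk3 ranged from 46.3 to 142 CPM over all lines. Fbxw7, the ubiquitin ligase subunit that targets cyclin E, was the most even member, with its highest line 1.39-fold above its lowest.

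Of the nucleotide and DNA synthesis genes, Polk changed and Rrm2b did not pass. Polk, a polymerase that copies past DNA lesions, was at 28.2, 25.8 and 25.7 CPM in mutant, 24.0 and 29.6 CPM in null and 67.5 and 61.9 CPM in WT lines. The 5 altered lines lay in a narrow range far below WT, and Polk fell in mutant lines (log2 fold change -1.29, SE 0.170, edgeR adjusted p = 0.0212), with -1.27 in null lines (edgeR adjusted p = 0.0735). Rrm2b, the p53-inducible subunit of ribonucleotide reductase, was at 24.2 to 32.0 CPM in mutant, 38.3 and 23.1 CPM in null and 29.6 and 19.4 CPM in WT lines.

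Of the 10 members called in mutant lines, the one with the largest fall and the only one that rose belong to metabolism and transport. Dcxr, a reductase of xylulose and dicarbonyls, was at 9.43, 6.29 and 6.79 CPM in mutant, 39.8 and 12.3 CPM in null and 85.7 and 82.4 CPM in WT lines. The WT lines lay close together, the mutant lines were all lowest, and the null lines stood far apart from each other. Dcxr fell in mutant lines (log2 fold change -3.48, SE 0.479, edgeR adjusted p = 0.0218), and its null value was -1.69 (SE 0.522, edgeR adjusted p = 0.170). Slc19a2, a thiamine transporter, was at 16.1, 24.4 and 31.2 CPM in mutant, 14.6 and 16.1 CPM in null and 62.1 and 54.3 CPM in WT lines. Slc19a2 fell in mutant lines (-1.29, SE 0.284, edgeR adjusted p = 0.0462), a call near the threshold that was also lost without null 1 or null 3 (adjusted p = 0.0543 and 0.0502), whose removal changes the shared estimate of spread and the genes tested.

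Steap3, an endosomal reductase of iron, was at 18.6, 36.5 and 47.5 CPM in mutant, 25.1 and 27.2 CPM in null and 3.74 and 6.09 CPM in WT lines. Every altered line was above both WT lines, the opposite direction to the other called members. Steap3 rose in mutant lines (log2 fold change 2.81, SE 0.471, edgeR adjusted p = 0.0289; 0.0803 by limma-voom), and its null value was 2.42 (SE 0.484, edgeR adjusted p = 0.1). Ak1, an adenylate kinase, was at 12.9 to 22.3 CPM in mutant, 10.2 and 17.9 CPM in null and 34.8 and 20.9 CPM in WT lines. 9630033F20Rik, which RefSeq lists as a synonym of Tigar, the fructose bisphosphatase that lowers glycolysis, was at 34.0 to 53.5 CPM in mutant, 56.3 and 45.4 CPM in null and 50.4 and 45.6 CPM in WT lines, with log2 fold changes of -0.07 and 0.08.

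Among nutrient sensors, Sesn1 and Sesn2, the sestrins that inhibit the growth kinase complex mTORC1, were not called. Sesn1 was at 23.3, 17.99 and 33.7 CPM in mutant, 18.1 and 13.6 CPM in null and 22.5 and 23.5 CPM in WT lines. Sesn2 was at 73.7, 119 and 88.0 CPM in mutant, 73.7 and 66.6 CPM in null and 126 and 71.3 CPM in WT lines, so that its groups overlapped in both comparisons with WT. Ddit4, another inhibitor of mTORC1, was at 169, 116 and 116 CPM in mutant, 646 and 199 CPM in null and 616 and 339 CPM in WT lines. All mutant lines were below both WT lines, whereas null 1 was above both. In mutant lines the log2 fold change of Ddit4 was -1.84 (SE 0.503, edgeR adjusted p = 0.07; 0.0247 in a fit of mutant and WT lines alone, and 0.0291 and 0.0265 without null 1 and null 3) and in null lines -0.18, which turned to -1.27 without null 1.

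Gdf15, a secreted stress cytokine, was at 3.701, 0.641 and 2.87 CPM in mutant, 3.56 and 3.64 CPM in null and 0.782 and 0.731 CPM in WT lines. Mutant 2 was at the WT level and the other 4 altered lines above it, and neither log2 fold change (1.66 and 2.24) was called. Gdf15, Sesn2 and Ddit4 also respond to the transcription factor ATF4 in amino acid and endoplasmic reticulum stress. Of 16 genes of that response, none was called in any comparison by edgeR. At an unadjusted p under 0.05 were 3 in mutant against WT, 2 in null against WT and 2 in mutant against null (30.5%, 20.2% and 14% of all genes). The median log2 fold change of the 16 was 0.01 in mutant and 0.19 in null against WT. Their mean log2 ratio to WT was 0.015, -0.056 and 0.0090 in mutant lines, 0.42 and 0.088 in null 1 and null 3, and 0.24 and -0.24 in WT lines. The 2 in null against WT were Nupr1 (1.89) and Asns (-0.48), and those in mutant against null were Nupr1 (-2.53) and Psat1 (0.49).

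Of the 2 remaining members, Def6, a guanine nucleotide exchange factor, was at 37.1, 47.8 and 49.8 CPM in mutant, 56.3 and 40.3 CPM in null and 125 and 112 CPM in WT lines. Def6 fell in mutant lines (-1.40, SE 0.209, edgeR adjusted p = 0.0243), with -1.29 in null lines (edgeR adjusted p = 0.0916). Wrap53, a telomerase cofactor, was at 10.8 to 14.5 CPM in mutant, 8.85 and 10.2 CPM in null and 12.96 and 12.8 CPM in WT lines. Wrap53 lies head to head with Trp53 on the opposite strand. They do not overlap in GENCODE M21, but the annotation and strand setting behind the counts are not stated, so its reads cannot be told apart with certainty from those of Trp53.

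**Figure D5:**
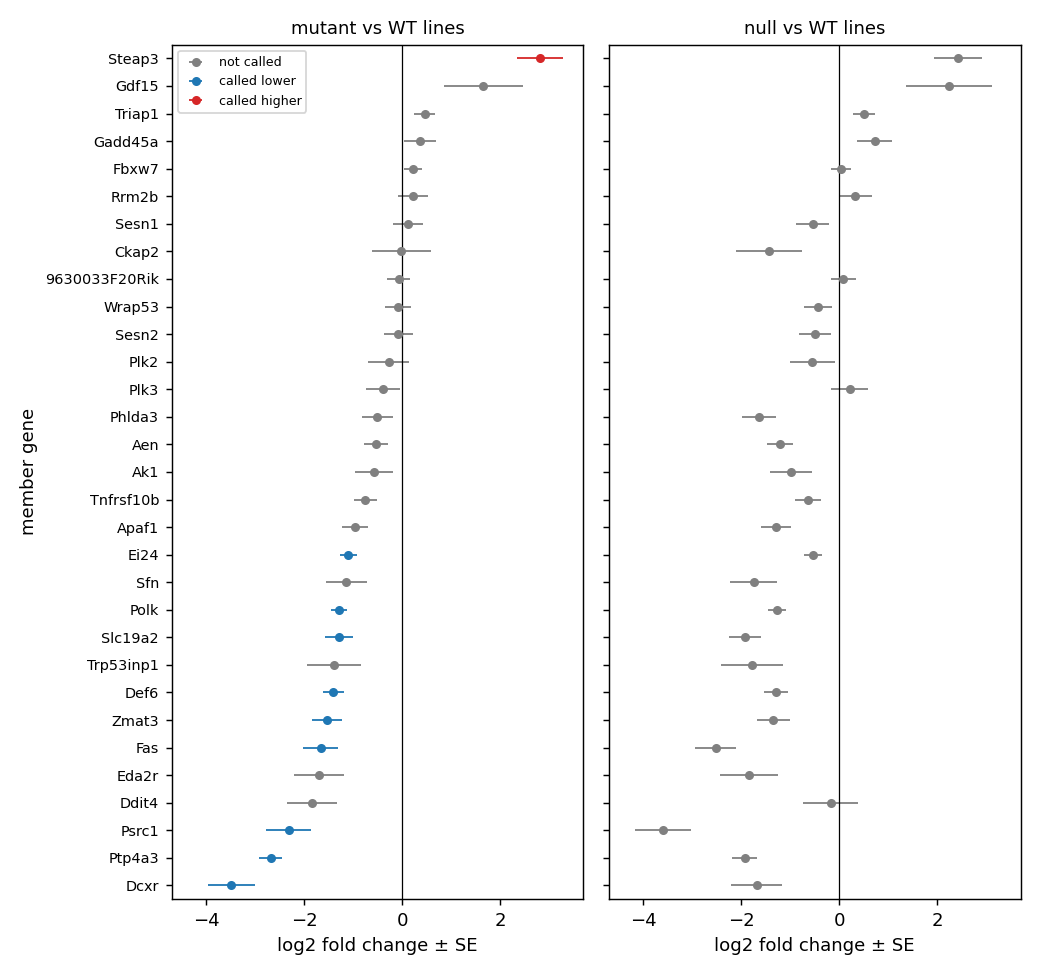
Log2 fold change ± SE of each member in mutant against WT lines (left) and null against WT lines (right), which share the WT lines, with members called by edgeR in colour. In mutant lines 9 members are called lower and Steap3 higher, and in null lines none is called, though Psrc1 reaches -3.60 and Fas -2.53.

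Mutant and null lines both carry the 4NQO label and differ in genotype, so they were set against each other. Other differences between these few lines cannot be told apart from genotype here. No member was called by edgeR, and no gene was (0% of 13768); 4 members were lower and 3 higher at an unadjusted p under 0.05, against 7.63% and 6.35% of all genes. The median log2 fold change was 0.20 over the members and 0.02 over all genes, and 14 members were below 0, as were 48.7% of all genes. The members' median was 0.0087, 0.10 and 0.062 without mutant 1, 2 and 3. The groups did not overlap for 4 members lower in mutant lines (Ei24, Ptp4a3, Dcxr and Ddit4), against 15.1% of all genes, and for 8 higher (Sesn2, Phlda3, Fas, Aen, Psrc1, Wrap53, Ckap2 and Slc19a2), against 16%. For Sesn2 the groups nearly touched, with mutant 1 at 73.73 CPM and null 1 at 73.69 CPM. Dcxr was at -1.80 on the log2 scale (SE 0.461, edgeR adjusted p = 0.275), Ddit4 at -1.66 (SE 0.502, adjusted p = 0.287) and Phlda3 at 1.13 (SE 0.326, adjusted p = 0.287), and these were the 3 members that DESeq2 called, beside 4.39% of all genes. Without null 1, Dcxr was at -0.70 and Ddit4 at -0.57, the highest values of both under any leaving-out of a line. Of the higher members, the log2 fold change was 1.42 for Ckap2, 1.28 for Psrc1 and 0.86 for Fas, none of them called. All 18 mitosis genes were above 0 in mutant against null, with a median of 1.36, and none was called by edgeR. At an unadjusted p under 0.05, 7 of the 18 were higher, beside 6.35% of all genes. The groups did not overlap for 12 of the 18, against 16% of all genes. The part of the mitosis genes in the values of Ckap2 and Psrc1 was not tested.

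Beside the members stood 20 other p53 targets, a list also chosen with earlier results of these data known. In mutant against WT, 9 of the 20 fell and none rose, beside 4.13% and 3.3% of all genes, with a median log2 fold change of -1.15, and those with the smallest p were the antiproliferative gene Btg2 (-4.01), the cyclin Ccng1 (-3.26), the repair endonuclease Ercc5 (-1.85) and the cell cycle inhibitor Cdkn1a (-3.62), with edgeR adjusted p of 0.00788 to 0.0199. In null against WT, 3 fell and none rose (Btg2 at -3.37, Ccng1 at -2.85 and Ercc5 at -2.13), beside 0.0654% of all genes that fell, with a median of -1.22. Without WT 1 or WT 2 edgeR called no gene in either comparison, so all of these calls were lost, and those in null against WT also without null 3. At an unadjusted p under 0.05 there were 2840 and 2207 genes in mutant against WT without WT 1 and WT 2, and 2147, 1126 and 2189 in null against WT without WT 1, WT 2 and null 3. Without mutant 2 and mutant 3 it called 37 and 6 genes in all in mutant against WT, and 8 and 3 in null against WT. No member had as large a fall in mutant lines as Btg2 or Cdkn1a. In mutant against null none of the 20 was called, with 4 lower and 1 higher at an unadjusted p under 0.05 (7.63% and 6.35% of all genes). The smallest p were those of the peptide transporter Tap1 (-2.67, edgeR adjusted p = 0.278) and the p53 relative Trp73 (3.17, edgeR adjusted p = 0.306).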

How the data were processed

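Per the labels' protocols, libraries were prepared from mRNA with a stranded kit. The authors deposited raw counts per gene name in 1 table of 24047 names. The submitters' processing notes name STAR 2.5.1b and build mm9. How reads were counted, on which strand and with which annotation is not given in the sources used here. The 92 spike-in names had 0 counts and were left out, and 27 names in date form were kept in the fit but not named. Groups came from the sample titles. No 2 libraries of a group agreed within sampling noise (chi-square over degrees of freedom, 56.4 to 243).

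Counts were tested in R 4.3.3 with edgeR 4.0.16 (quasi-likelihood F test in its older default form, TMM factors, default expression filter by group, all 7 libraries in 1 fit, Benjamini-Hochberg adjustment over 13768 genes, threshold 0.05). Called means past that threshold. Each SE is the absolute log2 fold change over the root of F. Ratios to WT use log2(CPM + 0.5). The members and lists were chosen with earlier results of these data known. All members were described, with values in every line for those called or among the 6 with the largest change in a comparison; of the other p53 targets, up to 4 called genes or else the 2 with the smallest p were named. The fit was tested on simulated data with changes placed in genes above 5 CPM. Of 2-fold changes it called 11.9% in mutant against WT, 2.99% in null against WT and 1.49% in mutant against null. Of 4-fold changes it called 58.2%, 53.7% and 65.7%, with 9, 6 and 4 false calls. A gene that was not called may therefore still differ. Alternatives were RLE factors, DESeq2 1.42.0, limma-voom (limma 3.58.1), no filter, 5 CPM in 2 libraries, only the groups compared, a replicate block, leaving out each library and, added after the data were seen, the newer quasi-likelihood form. Promoter windows are from RefSeq on GRCm38.p6; the counts' own build differs, so no coordinate was joined to them.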

Additional observations from a re-analysis of the deposited data

How the results depend on the processing

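RLE factors, the filter of 5 CPM in 2 libraries (which removed 1 member, Gdf15), fits of only the groups compared, no filter and the newer quasi-likelihood form left 9 or 10 members lower in mutant against WT, as did limma-voom. DESeq2 gave 15 members lower there and 3197 genes called (1714 higher and 1483 lower, against 454 and 568 by edgeR), 14 members and 1548 genes in null against WT, and 3 members and 604 genes in mutant against null. In null against WT, limma-voom called 0 genes (2155 at an unadjusted p under 0.05), no filter 77 and the newer form 55, the last 2 with 1 member lower each. In mutant against null, RLE factors, the stricter filter and the newer form called 1 gene each and no filter 2. With a replicate block 0 members and 0 genes were called by edgeR in mutant against WT and in null against WT. At an unadjusted p under 0.05 there were 16 and 18 members, beside 2887 and 1454 of 13768 genes. DESeq2 without a block called 15 members lower and 1 higher in mutant against WT, and 14 lower and 1 higher in null against WT. Whether the numbers pair the lines is not known. The correlation of deviations from group means for same-numbered lines ran from -0.36 to 0.15. In a group of 2 lines these deviations mirror each other, so the correlations cannot decide it. Leaving out 1 library gave 0 to 1420 genes and 0 to 9 members lower in mutant against WT, 0 to 55 genes and 0 to 1 member in null against WT, and 0 to 22 genes and 0 members in mutant against null; fits with a lone line in a group assume that it varies like the others.

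The 10 called members kept their sign in mutant against WT under all 15 alternatives. Sign changes were seen only for members not called in the comparison concerned. With a replicate block Sesn1 was at -0.029 in mutant against WT, Plk3 at -0.19 in null against WT, and Triap1 and Polk at 0.0082 and 0.025 in mutant against null; with limma-voom Ckap2 was at 0.14 in mutant against WT and Polk at 0.0039 in mutant against null. Leaving out 1 library gave these ranges of log2 fold change. In mutant against WT, Sesn1 was at -0.17 to 0.29, Sesn2 at -0.43 to 0.40, Rrm2b at -0.050 to 0.57, Ckap2 at -0.39 to 0.50 and 9630033F20Rik at -0.21 to 0.091. In null against WT, Ddit4 was at -1.27 to 0.44, Plk3 at -0.18 to 0.52, Rrm2b at -0.088 to 0.67, Fbxw7 at -0.073 to 0.14 and 9630033F20Rik at -0.083 to 0.23. In mutant against null, Zmat3 was at -0.44 to 0.14, Trp53inp1 at -0.14 to 1.22, Tnfrsf10b at -0.24 to 0.048, Eda2r at -0.37 to 0.98, Plk2 at -0.18 to 0.98, Rrm2b at -0.42 to 0.31, Sfn at -0.0081 to 0.83, Def6 at -0.32 to 0.16, Triap1 at -0.15 to 0.10, Polk at -0.15 to 0.15 and 9630033F20Rik at -0.29 to 0.021. The cause of these changes was not tested.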
